A study of Saccharomyces cerevisiae with 2 samples.

Results

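The retrograde response genes described here were CIT2, CIT3, DLD3, RTG1, RTG2, RTG3 and MKS1 of the budding yeast Saccharomyces cerevisiae. These 7 genes were chosen by name from the 6603 open reading frames (ORFs) listed for each library, and all 7 were found. Transcripts were sequenced in 1 library from strain CY2706, which has wild-type TRA1, and in 1 library from strain CY3003, which has the tra1-L3733A allele, a leucine-to-alanine change in Tra1. Both cultures were grown in YP with 2% glucose at 30 °C until the A600 was 2.0. No other marker or allele of either strain, and no number of clones, is given in the sources used here. The series compares gene expression between these strains. With 1 library per strain no difference has a replicate check, so no p-value is given and every ratio compares these libraries, not the genotypes.

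The retrograde pathway carries information from mitochondria to the nucleus. Rtg1 and Rtg3 are basic helix-loop-helix factors that bind DNA as a pair, at a short element called the R box, and enter the nucleus when mitochondrial function is low or glutamate is scarce. Mks1, together with the 14-3-3 proteins Bmh1 and Bmh2, holds them in the cytoplasm, and Rtg2 binds Mks1 and so relieves the block. Rtg2 is also a subunit of SLIK, a form of the SAGA acetyltransferase complex that has Tra1 as a subunit as well. CIT2, which encodes the peroxisomal citrate synthase of the glyoxylate cycle, is the classic target. DLD3 encodes a cytosolic enzyme that converts D-2-hydroxyglutarate and is a target too. CIT3 encodes a mitochondrial enzyme that makes citrate and methylcitrate.

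The R box core, GTCAC, was looked for on both strands in the 400 bases before the start codon of every nuclear coding gene with a full window in the R64 reference. This window was chosen after the matches at CIT2 and DLD3 had been seen. Of 6001 genes, 2086 (34.8%) held at least 1 match and 439 (7.32%) at least 2. Of the 7 retrograde response genes, 6 held a match and MKS1 held 0. CIT2 held 3 matches, DLD3 and RTG3 held 2 each, and CIT3, RTG1 and RTG2 held 1 each. CIT2, DLD3 and RTG3 each had a pair on opposite strands whose first bases lay at most 40 bases apart, an arrangement found at 52 of the 6001 genes (0.867%). The limit of 40 bases was also chosen after the positions were seen. No match at these 7 genes lay within GTCACGTG, where the core overlaps the E box CACGTG, and such a match was found at 90 genes (1.5%). A match describes the letters only and does not show that a factor binds there.

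The stretches that hold the matches are printed to show where the pairs lie. They are RefSeq R64 sequence, 5′ to 3′ on the coding strand of each gene, with 20 bases on either side of the outermost matches. Capitals mark GTCAC, or GTGAC where the match is on the other strand. The CIT2 stretch is chrIII:122500-122693 on the reverse strand, from -365 to -172 relative to the start codon. The DLD3 stretch is chrV:16175-16236 on the forward strand, from -180 to -119. The RTG3 stretch is chrII:23854-23926 on the reverse strand, from -390 to -318. The stretches with 1 match are chrXVI:556132-556176 on the forward strand for CIT3, chrXV:202688-202732 on the reverse strand for RTG1 and chrVII:27656-27700 on the reverse strand for RTG2.
CIT2: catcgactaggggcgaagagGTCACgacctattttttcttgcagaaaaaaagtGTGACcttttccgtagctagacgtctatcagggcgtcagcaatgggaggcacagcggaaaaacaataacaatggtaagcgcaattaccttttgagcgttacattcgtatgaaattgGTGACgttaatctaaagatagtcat
DLD3: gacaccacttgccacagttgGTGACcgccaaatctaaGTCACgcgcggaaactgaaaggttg
RTG3: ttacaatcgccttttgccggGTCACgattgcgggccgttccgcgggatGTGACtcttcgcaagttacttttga
CIT3: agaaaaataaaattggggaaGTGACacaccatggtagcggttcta
RTG1: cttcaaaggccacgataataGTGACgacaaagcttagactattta
RTG2: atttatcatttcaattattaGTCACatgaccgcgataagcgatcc

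In CIT2 the first match starts at -345 on the coding strand and the second at -312 on the other strand, and the remaining match starts at -196 on the other strand. In DLD3 the order is turned around, with the other strand at -160 and the coding strand at -143. The RTG3 pair has the order of the CIT2 pair, at -370 and -342.

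**Figure D1:**
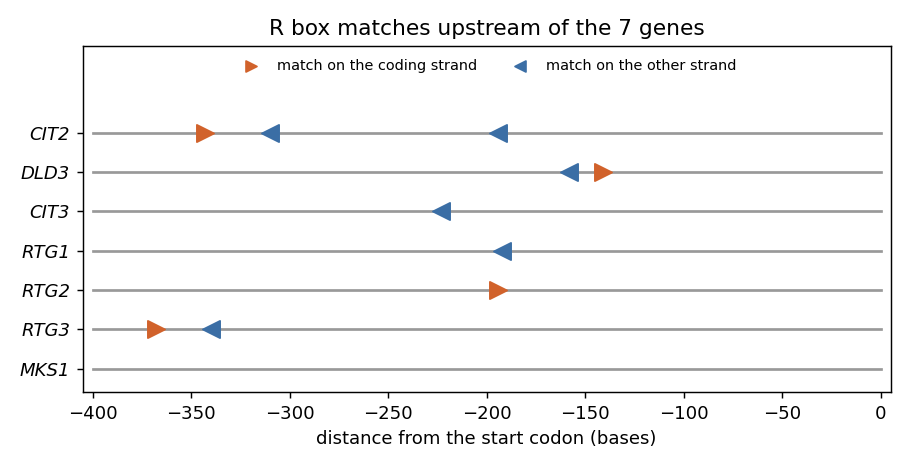
R box matches (GTCAC on either strand) in the 400 bases upstream of the start codon of the 7 genes in R64, with distance in bases on the horizontal axis and arrowheads for the strand of each match. CIT2 has 3 matches, DLD3 and RTG3 have 2, CIT3, RTG1 and RTG2 have 1, and MKS1 has 0.

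Over the listed ORFs the reads summed to 11564964 for TRA1 and 9970836 for tra1-L3733A. Levels are counts per 1e6 (CPM) of the library size after TMM scaling, which trims extreme ORFs before it averages the differences between libraries. A ratio always means tra1-L3733A over TRA1, and the bracketed values after it are the bounds of its 95% exact interval, which covers counting error only. An ORF was called higher or lower when it had at least 20 reads in all, a ratio of at least 1.5 in that direction and an interval without 1. In all, 175 of 6248 ORFs tested were called higher (2.80%) and 341 lower (5.46%), a split of 91 and 515 with scaling by total counts. The TRA1 gene itself was called lower on 12035 and 5102 reads, at 0.526 (0.509 to 0.544).

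CIT2 was higher in the tra1-L3733A library and was the 1 gene of the 7 that was called, while DLD3 and CIT3 were above 1 but short of the 1.5 ratio. From all reads under TMM scaling, the 4 regulators RTG1, RTG2, RTG3 and MKS1 had ratios between 0.890 and 1.14. Every one of these 4 intervals held 1. So 1 of 7 genes was called higher, beside the background of 2.80%, and 0 of 7 were called lower, beside 5.46%. At a ratio of at least 2, 0 of 7 were called in either direction, beside 0.320% of ORFs higher and 0.912% lower. With a call from 25% above 1, CIT2, DLD3 and CIT3 were higher, 3 of 7 beside 10.7%, and with the matching bound below 1, 0 of 7 were lower beside 14.4%. This count of 3 is for all reads under TMM scaling. DLD3 fell below that bound, to 1.21, with scaling by total counts, and CIT3 was at 1.21 (0.906 to 1.60) from rr reads. A single call among 7 genes does not set the group apart from that background. All 7 passed the 20-read minimum. Their median log2 ratio was 0.19, against a median of -0.00 over all ORFs tested, and 6 of the 7 log2 ratios lay above 0, against 3102 of 6248.

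CIT2 (YCR005C, files' coordinates III, 120944 to 122326) had 645 reads in the column headed fr and 635 in that headed rr in the TRA1 library, and 844 and 849 in the tra1-L3733A library. Both columns of the tra1-L3733A library were thus above both columns of the TRA1 library, although that library held fewer reads in all. Scaled, the CIT2 level went from 107 CPM for TRA1 to 176 CPM for tra1-L3733A, a ratio of 1.64 (1.53 to 1.77) and a log2 ratio of 0.72. Only 1.74% of the ORFs tested had a ratio as high or higher, which places CIT2 at rank 109 from the top. In RNA from a whole culture, more transcript per cell and more cells with the transcript cannot be told apart. The ratio was 1.63 (1.47 to 1.80) from fr reads alone and 1.66 (1.496 to 1.84) from rr reads alone. The call held under each scaling tried, with a lowest ratio of 1.53 (1.43 to 1.65) when the libraries were scaled by total counts. That ratio lies just above the 1.5 needed for a call, and its interval reaches below 1.5.

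DLD3 (YEL071W, V, 16355 to 17845) had the highest level of the 7 genes, with 2350 reads (196 CPM) for TRA1 and 2443 (253 CPM) for tra1-L3733A. Its ratio was 1.29 (1.22 to 1.37), so the interval lay above 1 but the ratio was not large enough for a call. The ratio was 1.23 (1.13 to 1.33) from fr reads and 1.35 (1.249 to 1.47) from rr reads, and 1.21 with scaling by total counts. At rank 620, DLD3 had 9.92% of the ORFs tested at or above its ratio.

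CIT3 (YPR001W, XVI, 556374 to 557834) was the least abundant of the 7 by level per kb with 195 reads (16.3 CPM) for TRA1 and 211 (21.9 CPM) for tra1-L3733A. Its ratio of 1.34 (1.10 to 1.64) was close to that of DLD3, but the interval is wide because the reads are few. The columns gave 1.499 (1.13 to 1.9987) from 92 and 111 fr reads and 1.21 (0.906 to 1.60) from 103 and 100 rr reads. The rr reads alone therefore do not separate the libraries. An interval above 1, of whatever size, was found for 1511 of the ORFs tested (24.2%), so the intervals of DLD3 and CIT3 alone do not set them apart from the background.

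Among the regulators, RTG1 (YOL067C, XV, 201985 to 202518), the smaller of the paired DNA-binding factors, was at 22.5 CPM on 269 reads in the TRA1 library and at 23.9 CPM on 230 reads in the other. Its ratio was 1.06 (0.886 to 1.27). RTG3 (YBL103C, II, 22075 to 23535), which encodes the partner of Rtg1 that carries the activation domain, had 387 and 355 reads, or 32.3 and 36.8 CPM, and a ratio of 1.14 (0.983 to 1.32). The RTG3 interval from all reads reaches well above 1 and just below it, so a small difference was not resolved at this depth. From rr reads alone RTG3 was at 1.26 (1.02 to 1.56), an interval above 1, and from fr reads at 1.03 (0.840 to 1.27). The share of RTG1 in the summed reads of RTG1 and RTG3, which no scaling can change, was 41.0% (37.2 to 44.9%) in the TRA1 library and 39.3% (35.3 to 43.4%) in the tra1-L3733A library, and these exact binomial intervals overlap.

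RTG2 (YGL252C, VII, 25718 to 27484), the upstream activator, was at 113 CPM on 1350 reads in the TRA1 library and at 117 CPM on 1127 reads in the other. Its ratio of 1.04 (0.957 to 1.12) has the narrowest interval of the regulators. MKS1 (YNL076W, XIV, 483557 to 485311), the inhibitor, was the gene of the 7 with a ratio below 1. It had 647 and 464 reads, or 54.1 and 48.1 CPM, and a ratio of 0.890 (0.788 to 1.0045). With scaling by total counts the MKS1 ratio was 0.832 (0.737 to 0.939), still short of a call, and the ratios of RTG1 and RTG2 moved below 1, to 0.992 and 0.968. MKS1 made up 32.4% (30.3 to 34.5%) of the summed reads of RTG2 and MKS1 in the TRA1 library and 29.2% (26.9 to 31.5%) in the tra1-L3733A library, with intervals that overlap.

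**Figure D2:**
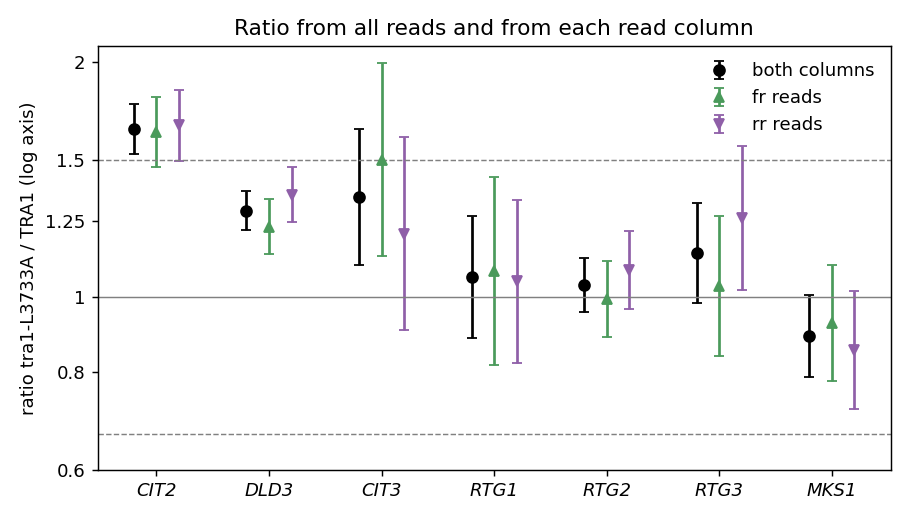
Ratio of tra1-L3733A to TRA1 on a log axis for the 7 genes, from all reads and from the fr and rr columns alone, with 95% exact counting intervals as bars and the 1.5 ratio in either direction as dashed lines. CIT2 lies above the upper dashed line in all 3 sets of reads, and the 4 regulators spread around 1.

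The fr and rr intervals overlapped for all 7 genes, whereas they lay apart for 156 of 6006 ORFs with at least 20 reads in each column (2.6%). None of the 7 ORFs overlaps another listed ORF. The nearest listed ORFs on either side, 14 in all, were called neither higher nor lower, as held for 5732 of 6248 ORFs tested. The neighbours of CIT2 were YCP4 at 0.904 (0.858 to 0.954) and YCR006C at 1.36 (1.0027 to 1.83), the latter on 87 and 95 reads. CIT3 lies beside PDH1, which is described with the methylcitrate genes below.

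**Figure D3:**
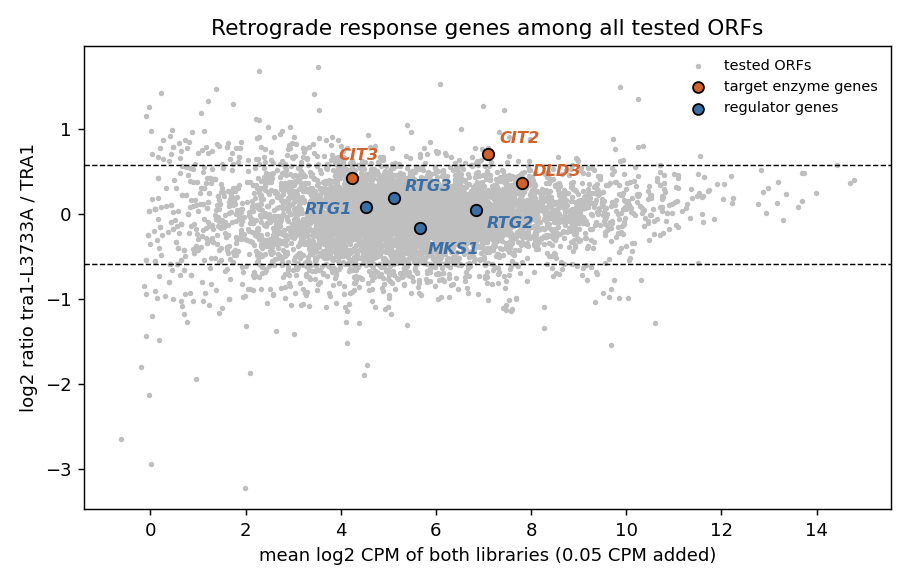
Log2 ratio of tra1-L3733A to TRA1 against the mean log2 CPM of both libraries for the 6248 ORFs tested, with the 7 retrograde response genes named and the 1.5 ratio dashed. CIT2 lies above the upper dashed line at a log2 ratio of 0.72, and the other 6 genes lie between the lines.

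Levels of different genes were compared per kb of ORF. In the TRA1 library the order was DLD3 with 132 CPM per kb, CIT2 with 77.4, RTG2 with 63.9, RTG1 with 42.2, MKS1 with 30.8, RTG3 with 22.2 and CIT3 with 11.2. By point values the tra1-L3733A library had the same order, with 170 CPM per kb for DLD3, 127 for CIT2, 66.2 for RTG2, 44.8 for RTG1, 27.4 for MKS1, 25.2 for RTG3 and 15.0 for CIT3. MKS1 and RTG3 could not be ordered in the tra1-L3733A library, since their exact Poisson intervals of 25.01 to 30.1 and 22.7 to 28.0 CPM per kb overlapped. The intervals of every other pair of neighbours in either order were apart. The level of the inhibitor MKS1 was thus below that of RTG2 in both libraries.

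**Figure D4:**
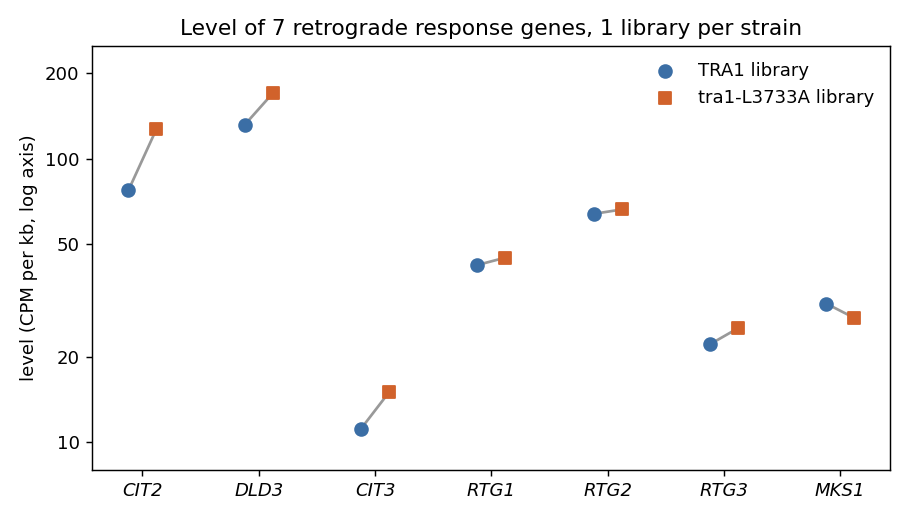
Level in CPM per kb of ORF, on a log axis, of the 7 genes in the TRA1 library (circles) and the tra1-L3733A library (squares), 1 library each. CIT2 goes from 77.4 to 127 CPM per kb and DLD3 from 132 to 170, and the order of the points is the same in both libraries, though MKS1 and RTG3 overlap within counting error in the tra1-L3733A library.

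Reads could also be compared within enzyme families, where library scaling cancels. CIT1 encodes the main citrate synthase of the mitochondrial TCA cycle. CIT2 took 1280 of 7258 reads of CIT1, CIT2 and CIT3 in the TRA1 library, or 17.6% (16.8 to 18.5%), and 1693 of 7074 in the tra1-L3733A library, or 23.9% (22.9 to 24.9%). The CIT1 share went from 79.7% (78.7 to 80.6%) to 73.1% (72.0 to 74.1%), and the CIT3 share was 2.69% (2.33 to 3.09%) and 2.98% (2.60 to 3.41%). The balance between peroxisomal and mitochondrial citrate synthase transcripts thus differed between the libraries beyond counting error, and the CIT3 share did not. The ratio of CIT1 itself was 1.11 (1.07 to 1.15). The CIT2 and CIT1 coding sequences are identical at 73.2% of aligned bases in R64, and 0 of the 1349 stretches of 35 bases in CIT2, the read length, come within 2 mismatches of a stretch of CIT1.

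DLD3 took 43.6% (42.3 to 44.98%) of the summed reads of DLD1, DLD2 and DLD3 in the TRA1 library and 51.2% (49.8 to 52.7%) in the tra1-L3733A library. DLD1 encodes the mitochondrial D-lactate dehydrogenase and DLD2 a mitochondrial D-2-hydroxyglutarate dehydrogenase. Their ratios were 0.986 (0.922 to 1.05) and 0.885 (0.806 to 0.972), so DLD3 stood above both of its relatives. CIT2 also had a larger share beside DLD3, with 35.3% (33.7 to 36.8%) of their summed reads in the TRA1 library and 40.9% (39.4 to 42.5%) in the tra1-L3733A library.

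Beyond the 7 genes, 36 genes of the pathway and of the reactions around it were followed, and 2 were called higher (GDH3 and GLT1) and 1 lower (ICL2), beside the 2.80% and 5.46% of all ORFs tested. Counts this small do not set the 36 genes apart from that background. Their median log2 ratio was 0.01, near the -0.00 of all ORFs tested, and 19 log2 ratios lay above 0 and 17 below.

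CIT1, ACO1, IDH1 and IDH2 encode the first enzymes of the TCA cycle and come under Rtg control when respiration is impaired. Of these 4 genes 0 were called, beside 2.80% of all ORFs tested called higher and 5.46% lower. All 4 ratios lay above 1, with a median log2 ratio of 0.20. ACO1, for aconitase, was nearest to a call, with 11450 and 13591 reads, or 957 and 1410 CPM, and a ratio of 1.47 (1.44 to 1.51). IDH1 and IDH2, for the subunits of NAD-dependent isocitrate dehydrogenase, were at 1.07 (1.01 to 1.13) and 1.19 (1.14 to 1.24), and IDH2 overlaps another listed ORF. With scaling by total counts IDH1 moved to 0.9996. The further targets PYC1, a pyruvate carboxylase, and ATO3, a membrane protein linked to ammonium export, were at 1.01 (0.963 to 1.07) and 0.956 (0.812 to 1.12).

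Genes for proteins that act with Mks1 or set its activity were not called, 0 of 7 in either direction. Beside them, 2.80% of all ORFs tested were called higher and 5.46% lower. The median log2 ratio of these genes was -0.07. The 14-3-3 genes BMH1 and BMH2 were at 1.01 (0.985 to 1.03) and 0.989 (0.948 to 1.03). GRR1, for the F-box protein that marks free Mks1 for breakdown, was at 0.931 (0.828 to 1.05), and LST8, for a TOR complex subunit that dampens the pathway, was at 1.01 (0.887 to 1.14). The kinase gene TOR1 was lowest in this list, at 0.812 (0.746 to 0.883). URE2 and GLN3, a nitrogen repressor and the activator it holds back, were at 0.894 (0.799 to 0.99958) and 0.953 (0.841 to 1.08).

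Of 6 SLIK and SAGA genes 0 were called, beside 2.80% of all ORFs tested called higher and 5.46% lower. A count of 0 in so short a list does not set it apart from that background. SPT7, whose shortened protein is typical of SLIK, was at 0.701 (0.634 to 0.774) on 1091 and 616 reads, and it was called lower, at 0.655, with scaling by total counts. PEP4, for the vacuolar protease that shortens Spt7, was at 1.29 (1.26 to 1.32). SPT8, ADA2 and SPT20 were at 1.01 (0.901 to 1.13), 1.16 (1.01 to 1.32) and 0.992 (0.863 to 1.14). GCN5, for the acetyltransferase, was at 0.974 (0.839 to 1.13), but at 1.26 (1.01 to 1.56) from fr reads and 0.767 (0.620 to 0.946) from rr reads. Those column intervals do not overlap, which held for 1 of the 36 pathway genes (2.78%), beside 2.6% of ORFs in general.

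Glutamate is made from 2-oxoglutarate, to which the citrate made by Cit2 leads. Of 5 glutamate and glutamine genes, GDH3 and GLT1 were called higher and 0 lower, beside 2.80% and 5.46% of all ORFs tested, and the median log2 ratio was 0.37. The list is small and was chosen with earlier results of these data known, so its count cannot show that these genes stand apart from that background. GLT1, for glutamate synthase, had 4706 and 6008 reads, or 393 and 623 CPM, and a ratio of 1.58 (1.53 to 1.65), which fell short of a call at 1.48 with scaling by total counts. GDH3, for the minor NADP-dependent glutamate dehydrogenase, had 518 and 756 reads, or 43.3 and 78.4 CPM. Its ratio was 1.81 (1.62 to 2.03), the highest of the 36 genes, and 1.61 (1.44 to 1.81) with the GC trend removed. GDH1, for the major form, was at 1.29 (1.27 to 1.32), and 19 of the 1340 stretches of 35 bases in GDH3 lie within 2 mismatches of GDH1. GLN1, for glutamine synthetase, and IDP1, for mitochondrial NADP-dependent isocitrate dehydrogenase, were at 0.997 (0.976 to 1.02) and 1.0047 (0.958 to 1.05).

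Of 2 methylcitrate genes, which handle the product of Cit3, 0 were called higher and 1 lower, beside 2.80% and 5.46% of all ORFs tested. A single call in so short a list does not set it apart from that background. ICL2, for the methylisocitrate lyase, was called lower, with 305 and 148 reads, or 25.5 and 15.4 CPM, and a ratio of 0.602 (0.492 to 0.735). From rr reads alone ICL2 was at 0.683 (0.515 to 0.901), short of a call. PDH1, thought to encode the methylcitrate dehydratase, was at 1.23 (1.03 to 1.46) on 266 and 263 reads, but at 0.977 (0.755 to 1.26) from rr reads. CIT3 and PDH1, which lie next to each other, thus had ratios above 1 on all reads, and ICL2 had a ratio below 1.

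Of 4 further glyoxylate cycle genes 0 were called, beside 2.80% of all ORFs tested called higher and 5.46% lower. The isocitrate lyase gene ICL1 and the malate synthase gene MLS1 were at 0.991 (0.865 to 1.13) and 0.840 (0.560 to 1.251), the latter on 65 and 44 reads. The cytosolic malate dehydrogenase gene MDH2 was at 1.32 (1.24 to 1.41) and the peroxisomal MDH3 at 0.892 (0.849 to 0.937). ICL1 and MLS1 encode the enzymes particular to the cycle. Neither was called, which held for 5732 of 6248 ORFs tested. MLS1 was at 1.29 (0.717 to 2.33) from fr reads and 0.559 (0.301 to 0.997) from rr reads, so its ratio was not resolved at this depth. Of 4 carnitine shuttle genes 0 were called as well, beside the same 2.80% and 5.46%. YAT1 was at 1.31 (1.13 to 1.53), YAT2 at 1.23 (1.08 to 1.40), CRC1 at 1.29 (0.872 to 1.90) on 55 and 57 reads and CAT2 at 0.990 (0.827 to 1.18). YAT1 was below 1, at 0.9575, with the GC trend removed.

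**Figure D5:**
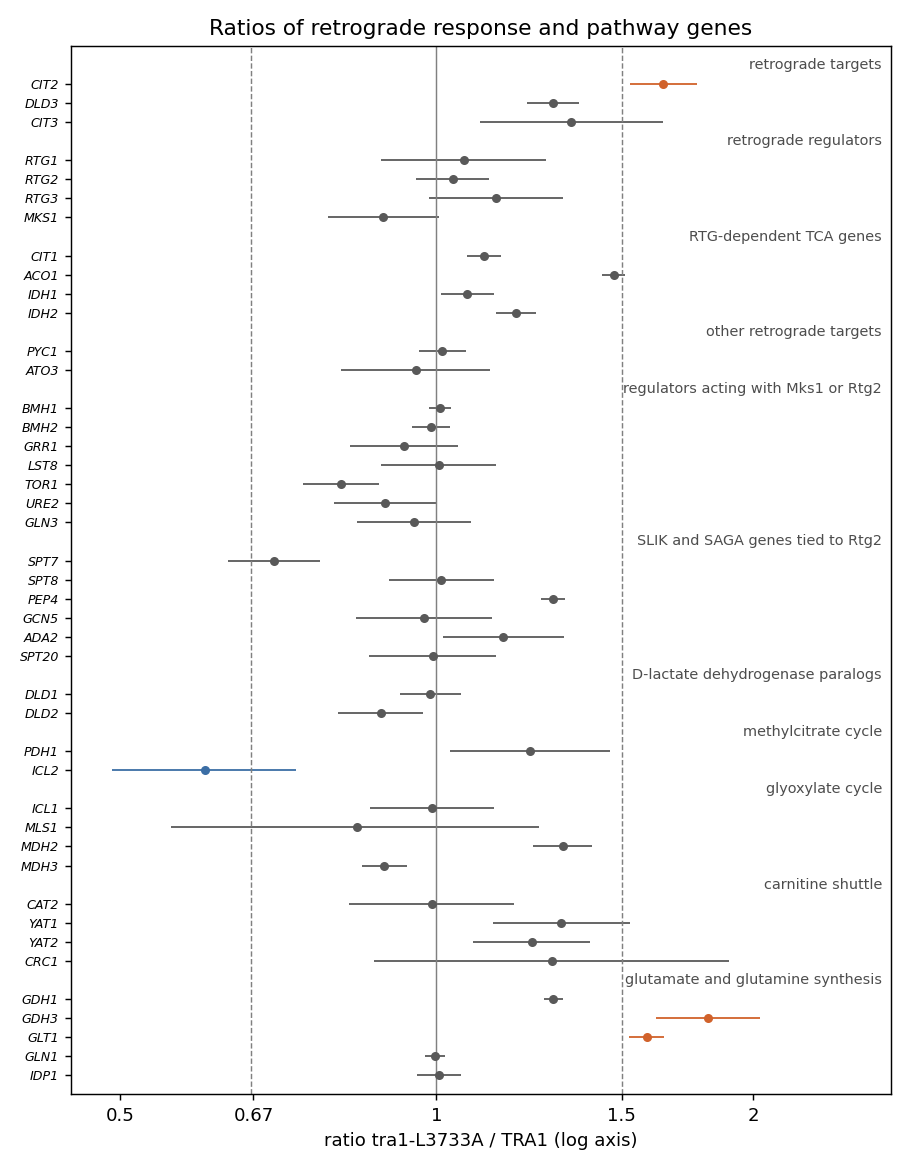
Ratio of tra1-L3733A to TRA1 on a log axis, with 95% exact counting intervals, for the 7 retrograde response genes and the 36 further pathway genes by list. The dashed lines mark a ratio of 1.5 in either direction, and coloured points mark CIT2, GDH3 and GLT1 as called higher and ICL2 as called lower.

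Likeness of pattern could be judged over 2 libraries only. Among 920 named ORFs that overlap no other and whose TRA1 level was within 1.5-fold of that of CIT2, the nearest log2 ratios to the 0.72 of CIT2 were those of GAP1, the general amino acid permease gene, also at 0.72, and RIM4, which encodes an RNA-binding protein of meiosis, at 0.69. GAP1 had 1242 and 1646 reads and RIM4 had 1260 and 1643.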

How the data were processed

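The authors deposited raw read counts per ORF without scaling, per the file headers, and each ORF has an fr and an rr column. A further deposited column gives coverage in reads per base. It equals the summed counts over the ORF span in all 13206 entries and was used for nothing else. Novoalign is named per the submitters' processing notes, while the sources used here do not give its version, the build, the annotation, the counting rule or whether the kit kept strand. Of 5916 ORFs matched to R64 by ID, 917 have the same start there, so R64 positions were kept apart from the files' positions.

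Here both columns were summed, as no source used here defines them, and scaled by TMM in edgeR 4.0.16 under R 4.3.3. The TMM factor was 1.035 in the TRA1 library and 0.967 in the other. Intervals of ratios and shares are Clopper-Pearson (scipy 1.17.1), and log2 ratios have 0.5 reads added to both counts. The reads carry no molecular identifiers and may be copies of 1 molecule, so intervals cover counting error only. The ratio method was run on simulated Poisson counts, which hold counting error only and so say nothing of the spread between cultures or libraries. The genes and lists were chosen with earlier results of these data known. Named were the 7 genes, TRA1, up to 4 genes per pathway list with the interval bound farthest from 1, CIT1, DLD1, DLD2 and SPT7, neighbours of the 7 genes, and the ORFs nearest to CIT2. The other genes of a pathway list are given as well. Alternatives were scaling by total counts, by lane reads (13014880 for TRA1 and 11156078 for tra1-L3733A) or by DESeq2 1.42.0 size factors, single columns, other read minimums and ratios, and removal of length or GC trends.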

Additional observations from a re-analysis of the deposited data

How the results depend on the processing

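No paired analysis was possible because each strain has 1 library, and for the same reason no replicate could be left out. CIT2 was called higher under every alternative except a ratio of at least 2, which left 0 of the 7 genes higher. It was joined by others under a call from 25% above 1, which gave 3 higher (CIT2, DLD3 and CIT3). None of the 7 was called lower under any alternative run. Over 7 alternatives of scaling, read column and trend, the ratio ran from 1.53 to 1.67 for CIT2, 1.21 to 1.35 for DLD3, 1.205 to 1.499 for CIT3, 1.03 to 1.26 for RTG3, 0.923 to 1.09 for RTG1, 0.968 to 1.08 for RTG2 and 0.832 to 0.926 for MKS1. Of all ORFs, scaling by total counts gave 91 higher and 515 lower, lane reads 98 and 500, a ratio of 2 gave 20 and 57, and the 25% rule 670 and 902. Either of the first 2 scalings lowers every ratio alike and left 1 of the 36 pathway genes higher (GDH3) and 2 lower (ICL2 and SPT7). From fr reads 5 of the 36 pathway genes were higher, beside 209 of all 6603 listed ORFs, and the cause was not tested. From rr reads MLS1 was called lower in place of ICL2. A ratio of 2 left 0 of the 36 pathway genes higher and 0 lower, beside 0.320% and 0.912% of all ORFs tested. The 25% rule gave 7 and 2 of the 36, beside 10.7% and 14.4% of all ORFs tested. No conclusion is drawn from counts this small. Among genes whose interval lay clear of 1, the ratios that changed side were those of IDH1 (0.9996, total counts), PDH1 (0.977, rr reads) and YAT1 (0.9575, GC trend removed), with the cause not tested. Ratios whose interval held 1, such as those of RTG1 and RTG2, also changed side under some alternatives. Counted per kb, the DLD3 share of its family was 46.9% for TRA1 and 54.6% for tra1-L3733A. Among the 7 genes depth limits CIT3 and RTG1 most, whose intervals come from 406 and 499 reads, and among the pathway genes it limits MLS1 and CRC1, on 109 and 112 reads.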

Other observations

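Across all genes, the number of R box core matches in the 400 bases before the start codon went with little difference in the ratio. Of 3702 tested genes with 0 matches, 2.67% were called higher and 5.32% lower. Of 1569 genes with 1 match, 2.04% were higher and 5.1% lower, and of 409 genes with 2 or more, 2.44% were higher and 7.82% lower. The median log2 ratio was -0.004 in each of these groups. Of 50 tested genes with a pair on opposite strands at most 40 bases apart, 2 (4%) were called higher and 5 (10%) lower, with a median of -0.057. Of all ORFs tested, 2.80% were called higher and 5.46% lower. CIT2 is 1 of those 2 genes, and the 40-base limit was chosen after its positions were seen. The group is therefore no independent check, and no conclusion is drawn from it.

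Mating type genes were read as a description of the cultures. Of 5 a-cell genes 0 were called, beside 2.80% of all ORFs tested called higher and 5.46% lower. STE2 was at 1.07 (1.02 to 1.13) on 3485 and 3008 reads, STE6 at 0.977 (0.935 to 1.02) and BAR1 at 0.798 (0.751 to 0.846). MFA1 was at 1.19 (0.975 to 1.46) and MFA2 at 1.11 (0.897 to 1.37). From fr reads alone MFA2 was at 1.75 (1.32 to 2.33), and from rr reads at 0.579 (0.402 to 0.823). Of 4 alpha-cell genes 3 were called higher and 0 lower, beside the same 2.80% and 5.46%. MF(ALPHA)1 was at 3.26 (2.15 to 5.06) on 32 and 84 reads and SAG1 at 1.64 (1.46 to 1.84) on 521 and 689. STE3, which overlaps another listed ORF, was at 1.62 (1.17 to 2.26) on 68 and 89 reads. MF(ALPHA)2 was not called, at 1.27 (0.830 to 1.94) on 47 and 48 reads. The part of these genes in any result above was not tested.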
